A study of Mus musculus with 3 samples.

Results

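The alpha-arrestins are a small family of adaptor proteins, and 5 of their genes, Txnip, Arrdc1, Arrdc2, Arrdc3 and Arrdc4, were followed in mouse skeletal muscle. They were found by gene symbol, each on a single row of the 24481 gene rows deposited for every library. All groups were ICR mice, an outbred stock with no engineered allele named, at postnatal day 42. The control group carried the label Control(NC), the second group was an exercise control, labelled EC, and the third combined exercise with a treatment that the labels call SQH, labelled ES. Fatigue and a leaf extract of the bamboo Sasa quelpaertensis are named in the study's title. Each group was 1 library. The labels name neither the muscle, the exercise, the SQH dose nor the sex, and do not say how many animals a library holds. Messenger RNA was read from its 3' end (QuantSeq), so reads per transcript do not grow with transcript length. A level is the deposited log2 value. Its scaling is not stated, and it is read here as the log2 of a library-size-adjusted read count, an inference from the spacing of low values. The 5 genes were chosen by their log2 levels across these same libraries, so their values are a description of 3 libraries and no test is made.

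Alpha-arrestins link membrane proteins to ubiquitin ligases. They carry the arrestin fold and, in their tails, short proline and tyrosine motifs that bind ligases of the NEDD4 type, so that a receptor or transporter held by the arrestin can be ubiquitinated and moved inside the cell. TXNIP, the thioredoxin-interacting protein, also binds and inhibits thioredoxin, and it restrains glucose uptake in muscle. Its gene is switched on by sugar phosphates through the transcription factors MondoA (Mlxip) and ChREBP (Mlxipl), and several members of the family respond to fasting, hormones and contraction.

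Depth, estimated from how low values are spaced, was 10.8 M reads for the control library, 8.07 M for the exercise control and 12.5 M for the SQH library. Skeletal muscle markers were abundant in all of them, with 6 of 6 past the expression minimum and a summed level between 19.92 and 20.13. The exercise control library stood apart. All 9 slow-fibre markers were at least 2-fold lower there than in either other library, with a summed level of 15.50 against 19.07 in the control and 18.73 with SQH. Fast-fibre markers summed to 19.62 there, against 19.18 and 18.92, and 2 of the 9, Myh4 and Atp2a1, were called lower in the SQH library than there. The nerve and Schwann cell markers were higher there, with 5 of the 9 past the minimum, all 5 of them called, and a summed level of 12.14 against 10.35 and 10.44. In whole tissue, fewer cells of a type and less RNA per cell cannot be told apart. Every difference below that involves the exercise control was measured beside those gaps, and their part in it was not tested.

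Promoters are shown for 3 genes. Txnip and Arrdc4 are the members best known as sugar-responsive, and both had their highest level with SQH. Arrdc4 lay below the expression minimum, and the gap between its SQH and exercise control levels was not resolved from the error of counting reads. Arrdc2 was the only member called in any comparison. Each line gives bases before the transcription start, 5′ to 3′ on the gene's own strand (up to the last base before it for Txnip and Arrdc2, and up to 4 bases before it for Arrdc4, where 3 bases lying in an exon of the gene were left out), from RefSeq on GRCm38.p6, the assembly family of the build mm10 that the submitters' processing notes name. Capitals mark the letters CACGAG or CACGTG (cores of the site read by MondoA and ChREBP), CCAAT (the NF-Y box), GTAAACA (the forkhead site of FOXO factors) and a loose form of the glucocorticoid receptor's site (GNACA, 3 bases of any kind, TGTNC), each on either strand.
Txnip, chr3:96557707-96557956, plus strand: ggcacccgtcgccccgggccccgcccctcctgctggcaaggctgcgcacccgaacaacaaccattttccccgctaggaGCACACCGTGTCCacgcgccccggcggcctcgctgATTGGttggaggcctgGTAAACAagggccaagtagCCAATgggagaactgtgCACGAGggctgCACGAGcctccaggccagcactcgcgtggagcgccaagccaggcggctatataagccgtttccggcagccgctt
Arrdc4, chr7:68749242-68749488, minus strand: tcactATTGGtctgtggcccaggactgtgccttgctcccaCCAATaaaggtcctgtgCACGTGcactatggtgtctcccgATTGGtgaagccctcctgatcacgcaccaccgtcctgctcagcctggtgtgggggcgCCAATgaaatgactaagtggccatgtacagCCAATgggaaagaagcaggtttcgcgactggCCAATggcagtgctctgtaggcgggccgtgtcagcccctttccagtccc
Arrdc2, chr8:70839721-70839970, minus strand: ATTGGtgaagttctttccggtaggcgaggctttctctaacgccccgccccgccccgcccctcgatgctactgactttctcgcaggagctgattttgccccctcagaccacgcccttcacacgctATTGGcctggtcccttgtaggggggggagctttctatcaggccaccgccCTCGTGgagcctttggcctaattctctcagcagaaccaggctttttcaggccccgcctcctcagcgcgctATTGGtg
In Txnip, 2 CACGAG cores followed each other 5 bases apart, from 85 to 69 bases before the start. Such a pair, CACGNG repeated in the same direction after 5 bases, occurred in 0.0457% of the 32851 upstream windows of 250 bases in the same table. Txnip also held 2 CCAAT boxes, where 1 or more were found in 33.8% and 2 or more in 10.1% of windows. It held 1 forkhead site and 1 match to the glucocorticoid receptor form, which were present in 3.17% and 0.387% of all windows. Arrdc4 held 6 CCAAT boxes, while 4 or more occurred in 0.84% of windows, and 1 CACGTG (6.02% of windows). Arrdc2 held 3 CCAAT boxes, where 3 or more were found in 2.79% of windows, and 1 CACGAG (5.37%). Arrdc1 held 2 CACGAG cores and no CCAAT box, and none of these letters apart from a CCAAT box was found in the 3 windows of Arrdc3. TGACGTCA, the cAMP response element, and the facing pair, CACGNG followed after 5 bases by CNCGTG, were also searched and matched no member, at 1.55% and 0.0396% of windows. The CACGAG and CACGTG searches overlap those for the pairs, whose letters they can form part of. A match describes letters and is not evidence of binding in these muscles.

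Txnip was by far the most abundant member and was highest with SQH. Control muscle gave a level of 13.04, the exercise control 12.80 and the SQH library 13.41. These levels placed it at rank 123, 137 and 86 of all rows, and it supplied 88.0%, 80.5% and 88.8% of the summed linear level of the 5 genes. The exercise control lay 0.245 below the control on the log2 scale (-0.245 ± 0.024), where ± is the standard error of counting reads. SQH lay above the exercise control by 0.616 ± 0.022, a ratio of 1.53, and above the control by 0.371 ± 0.019, a ratio of 1.29. About 9001, 5950 and 14314 reads stood behind these levels, so counting error was small, but it covers neither animals, library preparation nor the choice of scaling. None of these differences reached 2-fold, the size at which a gene was called. Differences at least as large in either direction were found in 60.6%, 22.2% and 33.0% of the rows past the expression minimum, a mean linear value of 66.5. The gene lies on chromosome 3 from 96557957 to 96561883 (GRCm38), plus strand. A non-coding gene of the opposite strand, Gm15441, shares 606 exonic bases with it but none of the last 500 bases where 3' reads begin. Gm15441 was near the limit of detection, at 2.91, 3.24 and 1.93.

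Arrdc4 encodes the closest relative of TXNIP and likewise binds glucose transporters. It was the scarcest of the 5, with levels of 5.08 (control), 5.06 (exercise control) and 5.67 (SQH), from about 36.0, 27.9 and 66.6 reads. Its order across libraries was that of Txnip, with SQH highest and the exercise control lowest. The control and the exercise control were separated by only -0.02 ± 0.36, whose sign turned under each of the 3 other scalings. SQH stood 0.607 ± 0.33 above the exercise control and 0.587 ± 0.30 above the control. The 95% counting interval of the first gap ran from -0.03 to 1.25 and that of the second from 0.002 to 1.17. At this depth the first is not resolved from counting error alone, and the second only barely. Arrdc4 fell below the expression minimum and was therefore not open to a call. The gene lies on chromosome 7 from 68736995 to 68749241, minus strand.

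Arrdc3, whose protein sorts receptors taken in from the cell surface, was higher in both exercised libraries. The levels were 9.597 for the control, 10.45 for the exercise control and 10.18 for SQH. The exercise control exceeded the control by 0.85 ± 0.066, a ratio of 1.80, and 4.67% of rows past the minimum were at least as far above 0. SQH exceeded the control by 0.58 ± 0.062, a ratio of 1.49, which 7.57% of rows matched or passed. SQH lay below the exercise control by a smaller amount (-0.27 ± 0.056). Both gaps to the control exceeded counting error, and neither reached 2-fold. About 827, 1167 and 1519 reads supported the levels. Arrdc3 lies on chromosome 13 from 80883384 to 80896042, plus strand, and shares no exonic base with another annotated gene.

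Arrdc1 encodes the member that recruits TSG101 to the plasma membrane and drives the budding of small vesicles. Its level was the steadiest, at 6.93, 6.98 and 6.64 in control, exercise control and SQH. The exercise control differed from the control by 0.047 ± 0.19. SQH was lower than the exercise control (-0.335 ± 0.19) and than the control (-0.288 ± 0.18), and the 95% counting intervals of all 3 differences included 0. Between 105 and 131 reads were behind each value. Arrdc1 lies on chromosome 2 from 24925352 to 24935252, minus strand.

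Arrdc2, a member with few assigned cargoes whose RNA responds to the fed and fasted state, was markedly lower with SQH. The control stood at 7.75, the exercise control at 7.42 and the SQH library at 5.94. Control and exercise control differed by -0.336 ± 0.15, a gap whose 95% counting interval ended at -0.03. SQH lay below the exercise control by -1.476 ± 0.20, so that the exercise control held 2.78 times the SQH level. Against the control the difference was -1.812 ± 0.19, and the control held 3.51 times the SQH level. Reads numbered about 230.4, 143 and 80.7 in the same order, although the SQH library was the deepest. The linear value of Arrdc2 with SQH was 61.5, below the expression minimum of 66.5. Its mean passed that minimum only through the control (215.9) and the exercise control (171.0), the libraries where it was high. Of the rows past the minimum, 0.458% were at least as low against the exercise control and 0.14% against the control. Arrdc2 lies on chromosome 8 from 70835129 to 70839720, minus strand, and shares no exonic base with another annotated gene.

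**Figure D1:**
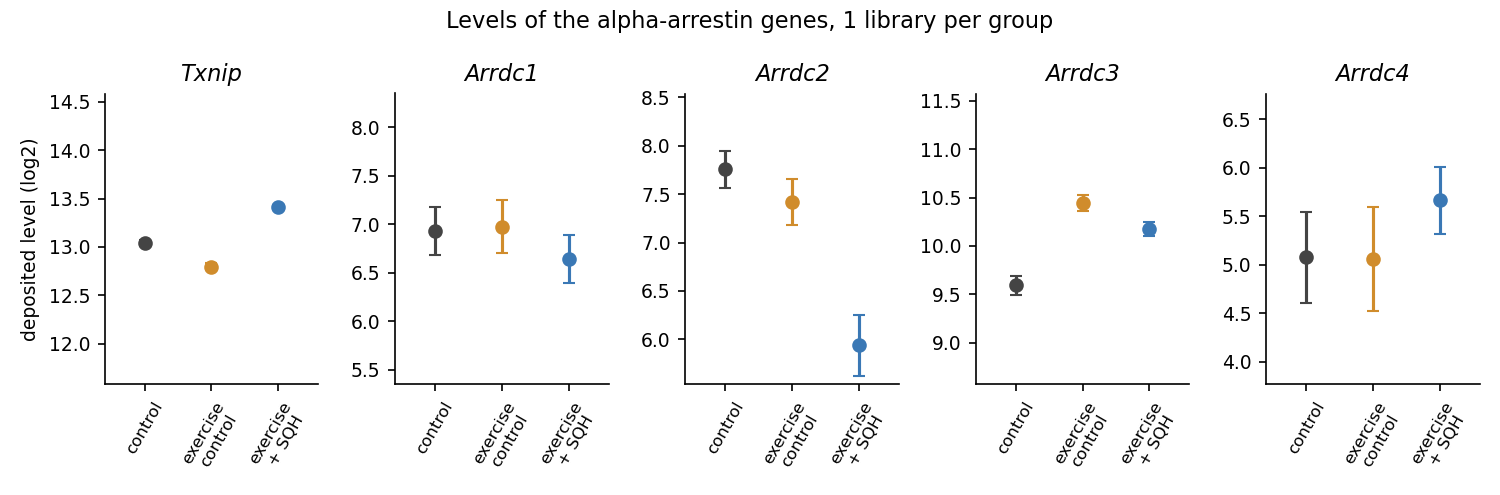
Deposited log2 level of each alpha-arrestin gene in the control, exercise control and exercise plus SQH libraries, 1 point per library, with vertical axes of equal span. Bars are approximate 95% counting intervals; Arrdc2 drops to 5.94 with SQH, Arrdc3 is lowest in the control at 9.597, and the intervals of Arrdc1 overlap.

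Exercise control was set against control to ask what differed in the exercised group without SQH. Of the 4 members past the expression minimum, 0 were called, where a call means a difference of at least 2-fold. The same rule called 8.29% of all rows past the minimum, 2.95% higher and 5.33% lower, or 293 higher and 348 lower rows in place of 232 and 419 once each library was centred on its median. The largest gap among the members was that of Arrdc3 at 0.85. The median was -0.10 over the 4, -0.02 over all 5 genes and -0.04 over all rows. It turned to 0.30 with the upper quartile as minimum, which leaves only Txnip and Arrdc3. Beside the low slow-fibre and high nerve markers, the exercise control had 2 of 4 tendon markers past the minimum called higher than the control (Tnmd and Fmod) and 1 lower (Scx), for a median of 1.24. It also had 1 of 3 adipocyte markers (Cidea) and 1 of 6 endothelial markers (Robo4) called lower. Cidea (4.95) and Robo4 (5.42) in the exercise control, and Tnmd (4.86) in the control, were below the minimum there. They passed it only through their other libraries.

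The exercised libraries, with and without SQH, were set side by side to describe what differed between them. With 1 library each, a difference cannot be assigned to SQH. Arrdc2 was called lower, 1 of the 4 members past the minimum, where 8.01% of all rows were called, 2.33% lower and 5.68% higher. Txnip (0.616) and Arrdc3 (-0.27) moved apart from each other and from Arrdc2 (-1.476). The median was -0.30 over the 4 members, -0.27 over all 5 genes and 0.03 over all rows, and it turned to 0.17 for the pair left by the upper quartile minimum. Of the adipocyte markers, 2 of 3 past the minimum (Cidea and Cfd) were called higher here, for a median of 1.25, with all 9 slow-fibre markers higher and 5 of 5 nerve markers lower. Since the exercise control library enters both this comparison and the preceding one, their differences are not independent.

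Exercise plus SQH was also set against control, the only comparison without the exercise control library. Again Arrdc2 alone of the 4 was called lower, against 3.02% of all rows called, 1.26% lower and 1.76% higher. With libraries scaled to an equal sum without ribosomal precursor RNA, 75 rows were lower and 167 higher, in place of 99 and 138. Txnip (0.371), Arrdc3 (0.58) and, below the minimum, Arrdc4 (0.587) lay above the control, so the family did not shift as a unit. The median was 0.04 over the 4, 0.37 over all 5 genes and -0.02 over all rows, and 0.48 for the pair left by the upper quartile minimum. The slow-fibre list was closer to the control here, with 9 of 9 below it, none called and a median of -0.34, and the nerve list had a median of 0.05. Of 7 adipocyte markers 3 passed the minimum and 1, Cfd, was called higher, with summed levels of 12.03 (control), 11.78 (exercise control) and 12.34 (SQH) and Lep at 0 in all libraries. Of 5 tendon markers 4 passed and 2, Tnmd and Fmod, were called higher, with sums of 9.56, 10.08 and 9.797. All 5 immune markers fell below the minimum, with summed levels of 4.297 to 4.87 and Cd3e at 0 in all libraries. The part of these markers in the lower Arrdc2 value was not tested.

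**Figure D2:**
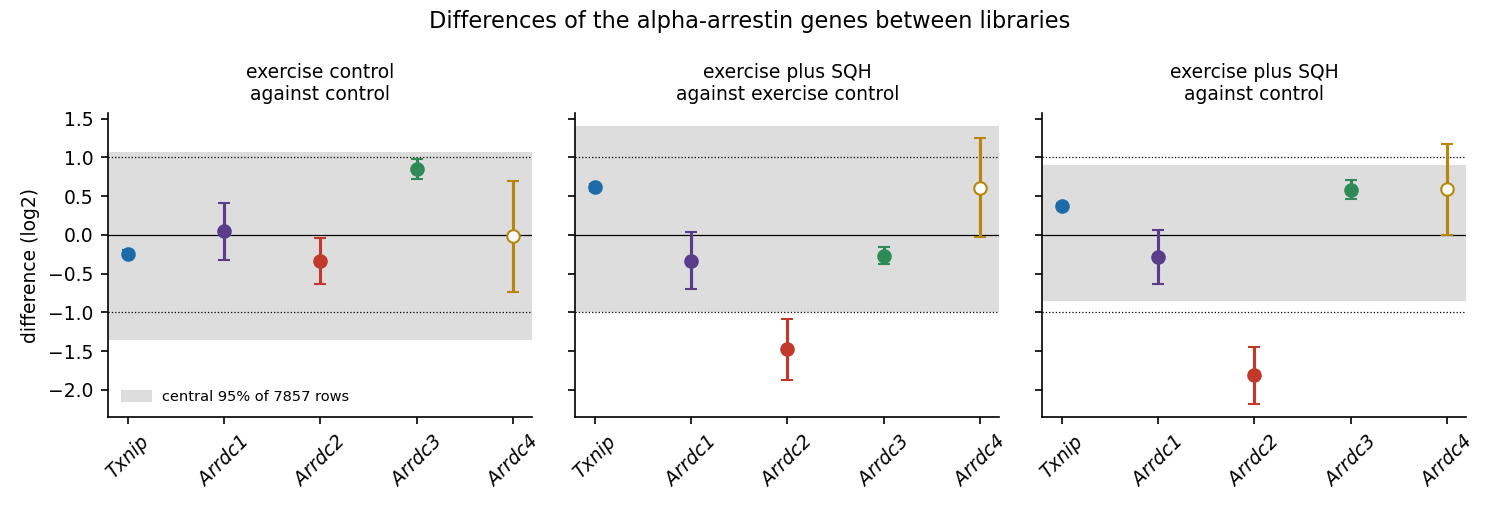
Difference in log2 level of each alpha-arrestin gene in the 3 comparisons, with approximate 95% counting intervals; the grey band holds the central 95% of the rows past the expression minimum, dotted lines mark 2-fold, and the open symbol is Arrdc4, below the minimum. Arrdc2 lies below the band in both comparisons of the SQH library, at -1.476 and -1.812, and the other points lie inside the band in each panel.

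**Figure D3:**
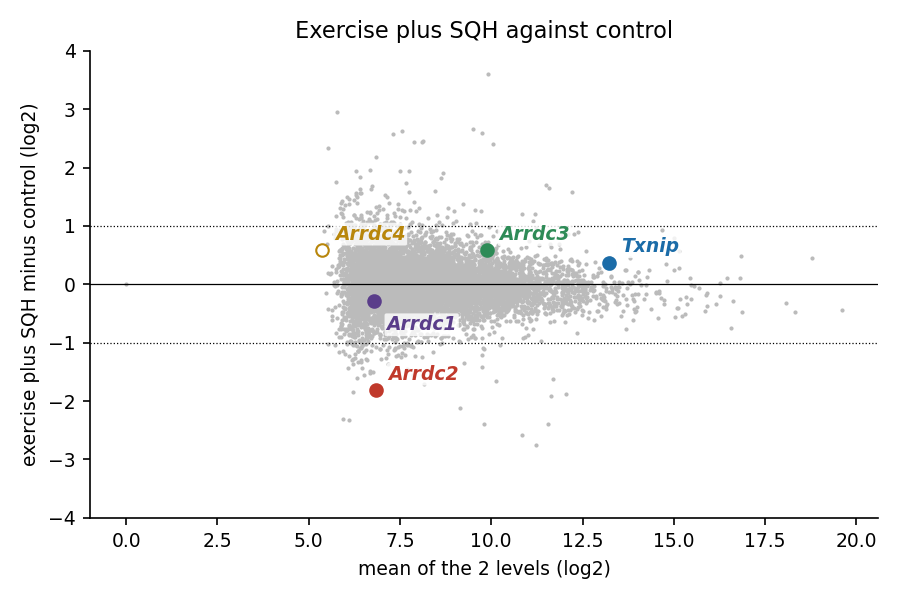
Difference between exercise plus SQH and control (log2) against the mean of both levels (log2), with each row past the expression minimum in grey, alpha-arrestin genes in colour and 2-fold marked by dotted lines; 1 row lies outside the plotted range. Arrdc2 (-1.812) sits below the lower line, while Txnip (0.371), at far higher expression, sits between the lines; the open symbol is Arrdc4, below the minimum.

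Partners of the family were taken from lists written with earlier results of these data known, and each count and median stands beside the values for all rows given above. Medians are given in the order exercise control against control, SQH against exercise control and SQH against control. In the thioredoxin system, 8 of 10 genes passed the minimum, with medians of 0.13, 0.13 and -0.06, the first of which turned to -0.04 with no minimum. None was called in the exercise control or with SQH against the control, and 1 was called lower with SQH against the exercise control. That was Txnrd2, the mitochondrial thioredoxin reductase, at 7.49, 7.82 and 6.81 in control, exercise control and SQH (-1.009 ± 0.16 against the exercise control). Thioredoxin itself, Txn1, stood at 8.62, 8.69 and 9.05. Among the inflammasome and stress partners only 2 of 7 passed and none was called. Their medians were -0.52, -0.04 and -0.56, and the last pair turned to 0.42 and 0.09 with no minimum. Nlrp3, a sensor that TXNIP can bind, was listed at 0 in all 3 libraries, and Ddit4, an inhibitor of mTORC1 signalling, stood at 9.89, 9.49 and 9.12.

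Of the sugar-sensing factors known to drive Txnip and Arrdc4, 5 of 6 were past the minimum and none was called in any comparison, with medians of 0.004, -0.12 and -0.03. The first and the last lie near 0 and turned sign under other settings. Mlxip stood at 8.20, 8.42 and 8.18, in the same order, and Mlxipl at 10.14, 9.76 and 9.64. Nfyb, a subunit of NF-Y, had the widest gap of the list, at 9.06, 9.88 and 9.32. Of the other sugar-responsive targets, 10 of 14 passed. In the exercise control 3 were called higher than in the control and 1 lower, for a median of -0.13 that turned to 0.11 with the upper quartile as minimum and to 0.28 with none. With SQH, Scd1, a fatty acid desaturase gene, was called higher (1.12) and Gpd1, a glycerol phosphate dehydrogenase gene, lower (-1.10) against the exercise control, for a median of 0.21. Against the control, Pfkfb3 was called higher and Thrsp lower with SQH, for a median of 0.17. Pfkfb3, which makes the activator of phosphofructokinase, stood at 8.84, 10.73 and 11.24, whereas Thrsp, a lipogenic gene, stood at 9.01, 7.80 and 7.29. Klf10, a zinc finger factor, was at 6.69, 8.002 and 7.66. The targets thus differed among themselves in direction, as the alpha-arrestins did.

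Reported cargoes of the family had 6 of 8 genes past the minimum and medians of -0.31, -0.04 and -0.03, of which the second and the third turned to 0.70 and 0.16 with the upper quartile as minimum. In the exercise control, 1 was called lower than in the control. With SQH, 2 were called higher than in the exercise control, and none was called against the control. F2r, the thrombin receptor, was 1 of those 2, with levels of 8.32 (control), 7.60 (exercise control) and 9.21 (SQH). Slc2a4, the insulin-responsive glucose transporter GLUT4, was nearly level at 12.70, 12.73 and 12.55. Of the NEDD4-type ligases and their ESCRT partners, 12 of 15 passed and 1 call was made in all, with medians of 0.12, 0.03 and 0.16. The second turned to -0.04 once each library was centred on its median. Ndfip2, an adaptor of these ligases, was higher with SQH than in the exercise control (1.187 ± 0.14), at 7.59, 7.36 and 8.55. Nedd4 stood at 10.41, 10.59 and 10.73.

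Other genes of the arrestin fold gave no calls, with 4 of 8 past the minimum and medians of -0.34, 0.30 and -0.09, the second of which turned to -0.02 with the upper quartile as minimum. Dscr3, a retriever subunit, varied most among these (6.89, 6.06 and 6.71). Arrdc5, the remaining alpha-arrestin of the ARRDC series, was listed at 0 in every library, as were the photoreceptor arrestins Sag and Arr3. Subunits of AMPK, the kinase that marks TXNIP for degradation, also gave none, with 6 of 7 past the minimum and medians of 0.12, -0.09 and -0.12. Prkab2 had the widest gap of these, at 9.72, 10.48 and 9.65.

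Lists of hormone, fasting and contraction responses describe the state of the muscle in which the family was measured. All 15 glucocorticoid-responsive genes passed. In the exercise control 4 were higher than in the control, with SQH 3 were higher than in the control, and 0 were called between the exercised libraries, with medians of 0.19, -0.04 and 0.25. The called genes included the metallothioneins Mt2 (8.10, 11.74 and 11.70) and Mt1 (8.16, 11.05 and 10.83) and the glutamine synthetase gene Glul (10.60, 12.08 and 11.80). The list did not move as a whole. Of the 15, 10 lay above the control by any amount and 5 below it in the exercise control. SQH against the control gave the same counts. Below the control in the former were Zbtb16 (-0.989), Per1 (-0.93), Klf15 (-0.688), Dusp1 (-0.637) and Ddit4 (-0.394), none of them called. Of the FOXO factors and fasting-responsive targets, 15 of 17 passed, with medians of -0.36, 0.46 and 0.37, the first of which turned to 0.36 with the upper quartile as minimum. The exercise control had 2 of them higher than the control and 1 lower, SQH had 2 higher than the control, and 2 were higher with SQH than in the exercise control. Pdk4, the kinase that shuts pyruvate dehydrogenase, was highest with SQH (11.42, 11.04 and 13.00), the library in which Txnip was also highest and Arrdc2 lowest. A link between these genes was not tested. Gabarapl1, an autophagosome gene, stood at 10.25, 11.05 and 11.44, and Ccng2, a cyclin of resting cells, at 7.13, 6.46 and 7.57. This list did not move as a whole either. With SQH, 10 of the 15 lay above the control and 5 below it, none of the 5 called. The 5 were Bcl6 (-0.462), Foxo6 (-0.46), Foxo1 (-0.323), Sesn1 (-0.312) and Cdkn1b (-0.139). In the exercise control, 6 lay above the control and 9 below it. Among 11 of 12 contraction-responsive early genes past the minimum, 6 were higher with SQH than in the control and none lower, for a median of 1.02 that was 0.42 with the upper quartile as minimum. The list's medians in the other comparisons were 0.29 against the control for the exercise control and 0.60 for SQH against the exercise control. Atf3 (6.78, 5.98 and 8.72), Nr4a3 (6.02, 8.04 and 8.60) and Maff (5.33, 6.51 and 7.28), which encode stress- and activity-induced transcription factors, spanned the most. Each passed the expression minimum by its mean but lay below it in its lowest library. That was the exercise control for Atf3 and the control for Nr4a3 and Maff. In the exercise control, 3 genes of the list were higher and 1 lower than in the control, and 2 were higher with SQH than in the exercise control. The lower gene was Nr4a1 (-1.072), which also lay below the control with SQH (-0.476), there without a call. Of the 11, 9 lay above the control and 2 below it, both in the exercise control and with SQH.

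**Figure D4:**
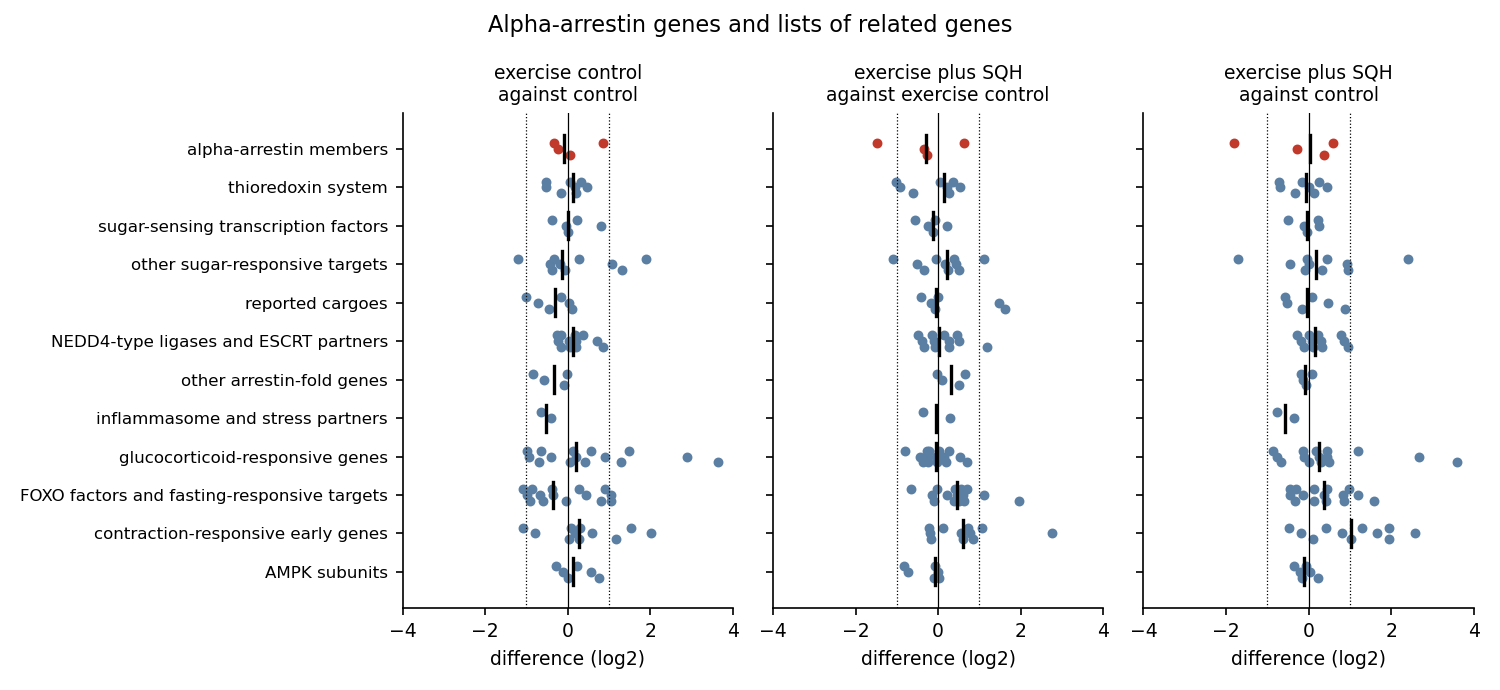
Difference in log2 level for alpha-arrestin genes (red) and genes of the related lists (blue) past the expression minimum, in the 3 comparisons; black bars are list medians and dotted lines mark 2-fold. In the SQH against control panel the early-gene median lies at 1.02, and Arrdc2 is the red point at -1.812.

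Arrdc2 was the only member past the minimum whose 3 levels spanned 2-fold or more, so genes of like pattern were sought for it alone. Likeness was the Euclidean distance between the 3 log2 levels of 2 genes, each taken less its own mean. Among 7856 other rows, 21 lay within 0.5 of Arrdc2 and 1 within 0.25. The nearest was Gadd45g, a stress-induced growth regulator, at a distance of 0.231, with levels of 10.19, 9.61 and 8.08 in control, exercise control and SQH. Plcd4, a phospholipase C gene, lay at 0.251 (8.63, 8.21 and 7.07). Mipep, a mitochondrial peptidase gene, lay at 0.313 (8.42, 8.04 and 6.97). With 3 libraries, such likeness says only that the levels stand in a similar arrangement.

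**Figure D5:**
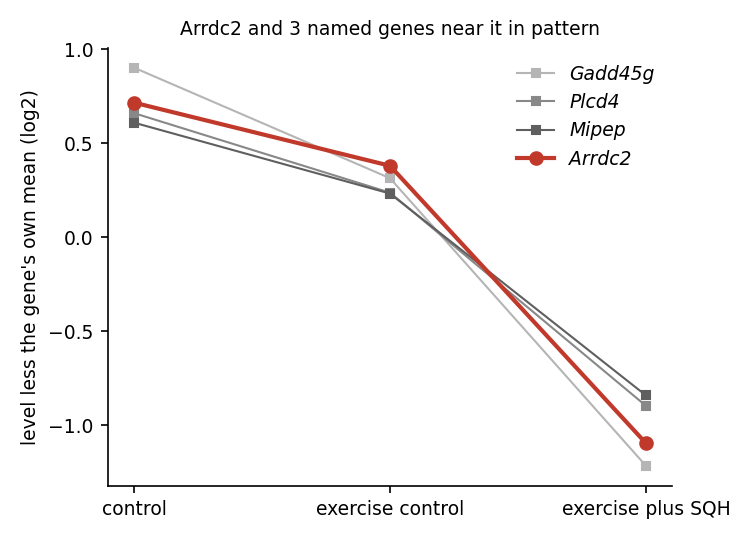
Log2 level less the gene's own mean over 3 libraries, for Arrdc2 (red) and 3 named genes near it in pattern (grey), with lines joining the libraries only to guide the eye. In each the SQH library is lowest, as for Arrdc2 at 5.94 against 7.75 in the control.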

How the data were processed

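Muscle RNA (500 ng per sample, Trizol) went into QuantSeq 3' libraries, per the labels' protocols. Bowtie2, edgeR and mm10 appear in the submitters' processing notes, with no version or role. How reads were counted, on which annotation and with which strand setting is not given in the sources used here. The deposited log2 values (3 decimals, floored at 0) come with only a sample code, per the file headers. Low linear values bunched at multiples of a step (0.937, 1.20 and 0.762 in control, exercise control and SQH). The share of values at or below 9 that fell no more than 0.2 step from a multiple was 99.8%, 94.1% and 82.3%, so reads are approximate and no count model was fitted.

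Computed here (Python 3.11.15, numpy 2.4.6, pandas 2.3.3) were differences of log2 values and counting errors of a ratio of 2 Poisson counts. A gene was called at 2-fold or more if its mean linear value reached 66.5, the median of the 15714 rows above 0 in any library. A called gene could thus lie below that minimum in its lowest library. The slow-fibre marker Sln did so in the exercise control, at a log2 level of 5.74. With 1 library per group there is no p-value. Simulated data with known changes were used to test the script. Members, lists and tests were chosen with earlier results of these data known. The genes named were the 5 members, up to 3 called genes of each list or its widest gap, the 4 nearest in pattern to a member spanning 2-fold, and overlapping neighbours, of which 2 genes are not reported here. Scd1, Gpd1, Txn1, Mlxip, Mlxipl, Slc2a4, Nedd4, Nlrp3, Arrdc5, Sag, Arr3, Lep and Cd3e were named after their values were seen. So were Zbtb16, Per1, Klf15, Dusp1, Bcl6, Foxo6, Foxo1, Sesn1, Cdkn1b and Nr4a1, because they lay below the control. Positions are those of GENCODE M21. All 5 members matched the RefSeq promoter table. Scaling, expression minimum, pseudocount and threshold were varied.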

Additional observations from a re-analysis of the deposited data

How the results depend on the processing

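Of 8 other settings and 1 chosen after seeing the data (an expression minimum from only the libraries compared), 5 change the values and 4 only the rows counted or the threshold. Under those 5, 68 of 75 member differences stayed within their 95% counting interval, and the 7 others were all of Txnip, whose interval is narrow and whose signs held. Arrdc1, Arrdc2 and Arrdc4 have wide intervals because their reads are few, so staying inside does not show that their values are stable. The Arrdc4 difference between exercise control and control stayed inside while its sign changed under 3 settings. Txnip ranged from -0.245 to -0.164 in the exercise control against the control. With SQH it ranged from 0.543 to 0.662 against the exercise control and from 0.37 to 0.498 against the control. Arrdc2 ranged from -1.57 to -1.27 against the exercise control and from -1.85 to -1.58 against the control. With the upper quartile as expression minimum, 0 members were called with SQH against the exercise control and 0 against the control, because Arrdc2 then fell below the minimum. At 1.5-fold, 1 of the 4 members past the minimum was called in the exercise control against the control (Arrdc3). With SQH, 2 were called against the exercise control (Txnip and Arrdc2) and 1 against the control (Arrdc2). Calls at this threshold were common among the 7857 rows past the minimum. In the same order, 796 were higher and 1216 lower, 1159 higher and 729 lower, and 582 higher and 500 lower. Counts of all rows, higher and lower, were 1841 and 2418 (exercise control against control), 2558 and 1640 (SQH against exercise control) and 1872 and 1495 (SQH against control) with no minimum, against 232 and 419, 446 and 183, and 138 and 99 as reported. In the same order they were 75 and 158, 166 and 52, and 36 and 22 above the upper quartile, 796 and 1216, 1159 and 729, and 582 and 500 at 1.5-fold, and 168 and 320, 355 and 112, and 88 and 55 with 16 added to linear values. No paired analysis was possible because each group has 1 library, and for the same reason no replicate could be left out. Depth limits Arrdc4 most, at 27.9 to 66.6 reads.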
